A study of Mus musculus with 6 samples.

Results

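The probes of 10 genes for subunits of voltage-gated calcium channels were followed in cultured mouse cortical neurons after knockdown of the microRNA miR-27b. The 10 genes are among 21614 named on the array, 6 for alpha1, 2 for beta and 2 for alpha2delta subunits. All probes were taken whose platform gene symbol was Cacna1a, Cacna1b, Cacna1c, Cacna1d, Cacna1g, Cacna1h, Cacna2d1, Cacna2d3, Cacnb1 or Cacnb4. They numbered 32 of the 45281 probes on the Illumina bead array, with 22 for alpha1 subunits, 6 for beta subunits and 4 for alpha2delta subunits. The control group was 3 cultures given a control lentivirus, and the knockdown group was 3 cultures given a lentivirus against miR-27b. Each number, 1 to 3, was taken to stand for a separate neuronal preparation, as the series describes 3 preparations. All 6 cultures were of strain C57BL/6J and carried the genotype Dicerflox/flox (the gene for a microRNA-processing enzyme, flanked by recombination sites), and the labels name no Cre recombinase. Virus was added at a multiplicity of infection of 5 to wells of 500000 neurons, and RNA was taken at day 14. The promoter in the vectors, the content of the control vector and the donor animals' age and number are not known here. The array reads messenger RNA, so the level of miR-27b itself was not analysed here.

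Voltage-gated calcium channels open when the membrane depolarises and admit the calcium that triggers transmitter release, shapes firing and signals to the nucleus. The alpha1 subunit forms the pore and sets the channel type: P/Q-type and N-type channels act mainly at nerve terminals, L-type channels mainly on cell bodies and dendrites, and T-type channels open near the resting potential. Beta subunits bind the pore of high-voltage-activated channels inside the cell and alpha2delta subunits bind it outside, and both raise the number of channels at the surface.

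The agent and the genes that fell are shown as sequences first. The mature strands of miR-27b, from RefSeq on build GRCm38.p6, lie at chr13:63300718-63300739 and chr13:63300760-63300780 on the plus strand. Bases 2 to 8, the seed that pairs with target transcripts, are in capitals, and the labels do not say against which strand the knockdown was directed.
mmu-miR-27b-3p: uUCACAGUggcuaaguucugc
mmu-miR-27b-5p: aGAGCUUAgcugauuggugaac

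The RefSeq promoter table held 13 windows for 7 of the 10 genes, each cut to the 250 bases before an annotated start. The windows below are the most upstream one of each gene with a probe that fell at an adjusted p under 0.05. Other probes of Cacnb1, Cacna2d1 and Cacnb4 did not pass or were undetected. Capitals mark the GC box GGGCGG on either strand, overlapping matches included.
Cacnb1, chr11:98022628-98022877, minus strand: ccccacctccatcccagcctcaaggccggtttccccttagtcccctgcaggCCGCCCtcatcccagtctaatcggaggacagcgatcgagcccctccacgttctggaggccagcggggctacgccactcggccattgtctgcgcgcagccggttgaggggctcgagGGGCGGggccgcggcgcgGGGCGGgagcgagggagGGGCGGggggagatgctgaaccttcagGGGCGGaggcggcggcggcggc
Cacnb4, chr2:52676144-52676393, minus strand: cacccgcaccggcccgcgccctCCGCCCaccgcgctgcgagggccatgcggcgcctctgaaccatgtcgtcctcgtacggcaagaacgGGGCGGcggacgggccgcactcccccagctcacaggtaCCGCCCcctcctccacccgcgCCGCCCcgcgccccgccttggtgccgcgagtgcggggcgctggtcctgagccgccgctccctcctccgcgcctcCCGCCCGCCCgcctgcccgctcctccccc
Cacna2d1, chr5:15934441-15934690, plus strand: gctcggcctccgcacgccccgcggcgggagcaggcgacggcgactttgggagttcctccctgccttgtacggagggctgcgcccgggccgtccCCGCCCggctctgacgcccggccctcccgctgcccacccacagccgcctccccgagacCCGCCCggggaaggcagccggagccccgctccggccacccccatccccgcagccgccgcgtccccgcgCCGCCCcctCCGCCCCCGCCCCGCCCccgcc
Cacna2d3, chr14:29721865-29722114, minus strand: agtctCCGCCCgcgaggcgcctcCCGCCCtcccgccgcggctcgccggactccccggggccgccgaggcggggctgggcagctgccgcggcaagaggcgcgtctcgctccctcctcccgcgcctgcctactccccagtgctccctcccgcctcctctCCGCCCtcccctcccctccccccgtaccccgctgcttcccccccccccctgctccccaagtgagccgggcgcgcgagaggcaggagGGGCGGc
The GC box was in 7 of the 13 windows, against 32.7% of all 32851 windows of this length. The cyclic AMP response element TGACGTCA was in 0 of the 13 (1.55% of all windows), and the TATA box TATAAA was in 1 (12.4%), which belongs to Cacna1d. The 4 printed windows held 5, 6, 6 and 4 GC boxes in the order shown and were 73.2%, 79.6%, 82.4% and 80.0% G or C, where the median of all windows was 52.4%. The other windows of these genes held 0 GC boxes (Cacnb1 at 56% G or C, Cacnb4 at 71.2% and 48.8%). Genes with no probe that fell had like windows, namely Cacna1b (3 boxes, 72%), 1 of 3 of Cacna1c (6 boxes, 82.8%) and 1 of 2 of Cacna1d (5 boxes, 86.4%). The table does not say which start the transcript under a probe uses.

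Across the 6 arrays 17498 to 19163 probes were detected, meaning a detection p-value under 0.05, and the mean deposited intensity ran from 669 to 788. Knockdown array 3 was lowest in both. Rank correlations between arrays were 0.957 to 0.989. Markers of other cell types were also read. A probe detected on at least 3 arrays was found for 11 of 12 for astrocytes, 4 of 10 for the oligodendrocyte lineage and 1 of 10 for microglia. Probes of the neuronal genes Snap25 and Nefl were at background although neurons express both genes highly, so an undetected probe does not show that a transcript is absent.

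At least 1 probe each of Cacnb1, Cacnb4, Cacna2d1 and Cacna2d3 fell in the knockdown, and 1 of Cacna1h rose. Fitted were the 16 member probes, from 9 genes, that were detected on at least 3 arrays. Of these, 5 fell, 1 rose and 10 did not pass in limma's moderated test at an adjusted p of 0.05. Of all 18627 probes fitted, 13.6% fell and 13.9% rose (27.4% either way). Of the 5 that fell, 1 of Cacnb1 and 1 of Cacna2d1 were detected on 3 control arrays and 1 knockdown array, so they met the detection filter through the control group, where they are high. With no filter the members again gave 5 lower and 1 higher.

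By class, 3 of 5 beta probes and 2 of 4 alpha2delta probes fell, and 0 of 7 alpha1 probes fell while 1 rose. Of all fitted probes 13.6% fell and 13.9% rose, and the alpha1 counts are near those shares. The Cacnb1 probe and the Cacna2d1 probe counted here met the detection filter through the control group, as given above. The median difference, knockdown minus control on the log2 scale, was -0.62 for beta probes, -0.41 for alpha2delta probes and 0.05 for alpha1 probes. Over the 16 member probes it was -0.37, and over all fitted probes it was -0.0074. Intensity differed between the classes, as 3 of 7 alpha1, 3 of 5 beta and 3 of 4 alpha2delta probes were detected on all 6 arrays. The alpha1 median is the value of a Cacna1b probe detected on 4 arrays. The 3 alpha1 probes detected on all 6 differed by -0.44 and -0.35 (Cacna1g) and 0.51 (Cacna1h). The control and knockdown arrays did not overlap for 9 of the 16 (45.6% of all fitted probes): 7 were lower in all knockdown arrays (22.6%) and 2 were higher (22.9%). A difference between the classes was not tested, since probes of a gene share its transcripts and the members were chosen with results known. In these bulk samples fewer cells of a type and less RNA per cell cannot be told apart.

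**Figure D1:**
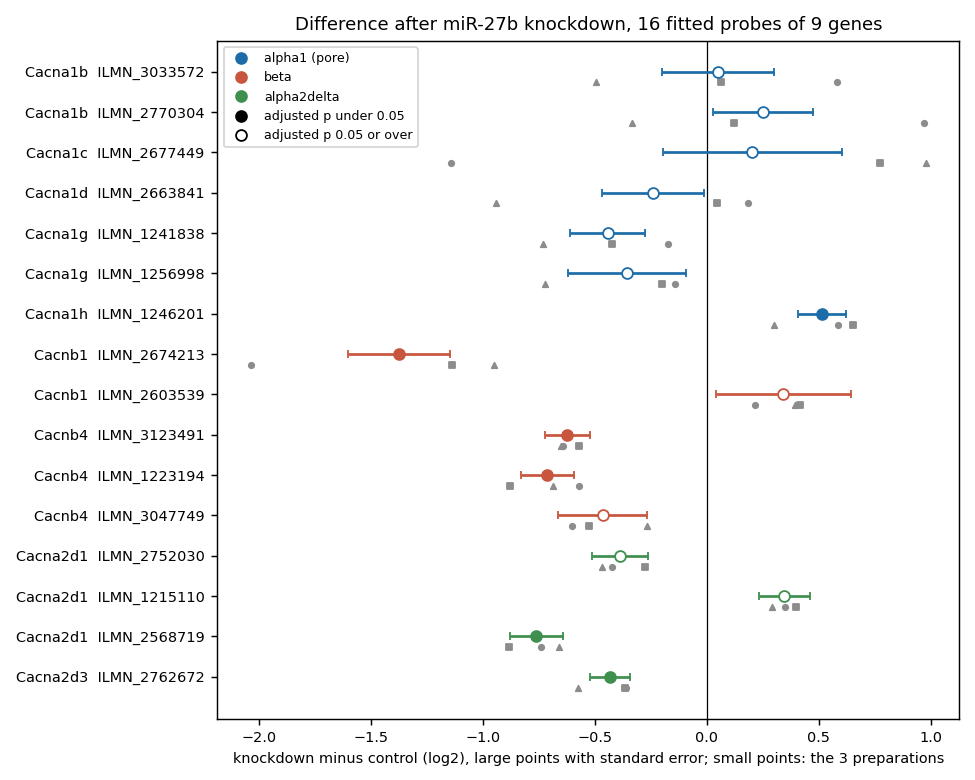
Difference between miR-27b knockdown and control (log2, horizontal axis) for the 16 fitted probes, with large points for the fitted difference, bars for its standard error and small symbols for the 3 preparations. The filled points, with an adjusted p under 0.05, are 5 probes below 0 and 1 probe above 0.

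**Figure D2:**
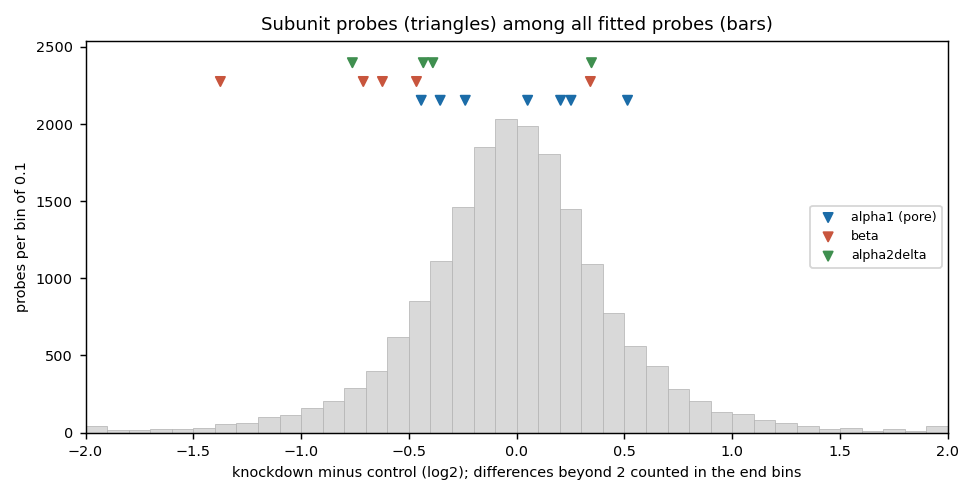
Number of fitted probes (vertical axis) in each bin of the knockdown minus control difference (log2, horizontal axis), with a triangle for each member probe coloured by class. The member probes run from -1.37 to 0.51, and the triangles of beta and alpha2delta subunits lie mostly left of 0.

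Among beta subunits, the clearest change was in Cacnb4, the gene mutated in the lethargic mouse and the beta subunit of many brain P/Q-type channels. Its probe ILMN_3123491 read 11.37, 11.19 and 11.18 in control preparations 1 to 3 and 10.73, 10.61 and 10.53 in the knockdown (log2 intensity throughout). Every knockdown array was below every control array. The level fell by 0.62 (SE 0.099, n = 3 per group, limma adjusted p = 0.0058), which is 1.54-fold lower. A second probe, ILMN_1223194, annotated to a different RefSeq transcript of the gene, read 9.39, 9.52 and 9.22 against 8.82, 8.64 and 8.53. These groups did not overlap either, and the level fell by 0.71 (SE 0.12, limma adjusted p = 0.0071). Both calls, of ILMN_3123491 and ILMN_1223194 in this order, were lost without preparation 1 (limma adjusted p = 0.0561 and 0.059) or 2 (0.0656 and 0.0826).

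Another Cacnb4 probe, ILMN_3047749, read 8.41, 8.36 and 7.75 in control and 7.80, 7.83 and 7.49 in the knockdown. Here the groups overlap, because control array 3 was below knockdown arrays 1 and 2. The difference was -0.46 (SE 0.20, limma adjusted p = 0.128), negative in 3 of 3 preparations. It passed with preparation as a block (adjusted p = 0.0349) and without control array 3 (-0.67, adjusted p = 0.0241), the array that makes the groups overlap. It did not pass in 10 of 11 other settings, nor in 7 of 9 fits with arrays left out (limma adjusted p up to 0.37). The remaining probe, ILMN_1230917, was undetected on all 6 arrays. The changes of the 3 fitted probes could not be told apart by limma on the log2 ratio of each to the brightest (-0.089, SE 0.12, adjusted p = 0.865, and 0.16, SE 0.18, adjusted p = 0.826).

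Cacnb1 encodes the beta subunit that skeletal muscle channels require and that neurons also express, and 1 of its 2 probes fell. ILMN_2674213 read 7.39, 6.78 and 7.05 in control and 5.35, 5.64 and 6.10 in the knockdown. It was detected on all 3 control arrays and on 1 knockdown array, and the groups did not overlap. The level fell by 1.37 (SE 0.23, limma adjusted p = 0.0068, or 0.0129 with no filter on dim probes). With 2 knockdown arrays at background this size is not an exact fold, and without background correction the difference was -0.76 (adjusted p = 0.0023). The call was lost without preparation 1 (limma adjusted p = 0.0595) or 2 (0.0506).

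The other Cacnb1 probe, ILMN_2603539, annotated to another RefSeq transcript, read 5.83, 5.66 and 6.50 in control and 6.05, 6.08 and 6.90 in the knockdown. Each knockdown array was above the control array of its preparation, while the groups overlap. The difference was 0.34 (SE 0.30, limma adjusted p = 0.44, or 0.0507 with preparation as a block), and 1 control array did not detect the probe.

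The log2 ratio of ILMN_2603539 to ILMN_2674213 was -1.55, -1.12 and -0.55 in control and 0.70, 0.44 and 0.80 in the knockdown. The groups did not overlap, but ILMN_2674213 was undetected on 2 knockdown arrays and ILMN_2603539 on 1 control array, and the sign of such a ratio has no meaning between probes. The ratio rose by 1.72 (SE 0.25, limma adjusted p = 0.0287), and 2.05% of the 5179 such pairs over all genes passed. Without background correction the rise was 0.94 (adjusted p = 0.0069). The call was lost with preparation as a block (adjusted p = 0.0594). It was also lost when control array 1 (1.48, adjusted p = 0.066), knockdown array 1 (1.69, 0.09), control array 2 (1.69, 0.109), knockdown array 2 (1.82, 0.0716) or knockdown array 3 (1.64, 0.0742) was left out, and kept without control array 3 (1.98, 0.0212).

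**Figure D3:**
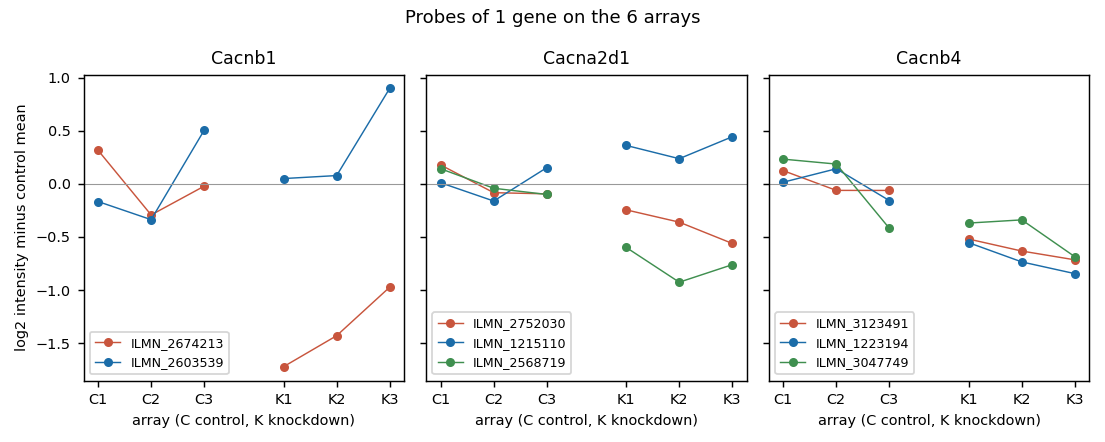
Log2 intensity of each fitted probe of Cacnb1, Cacna2d1 and Cacnb4, less its own control mean (vertical axis), on control arrays C1 to C3 and knockdown arrays K1 to K3 (horizontal axis). The Cacnb1 probes part in the knockdown, 1 of the 3 Cacna2d1 probes lies above the other two there, and the 3 Cacnb4 probes lie below 0 on every knockdown array.

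Among alpha2delta subunits, Cacna2d1 encodes the main binding site of gabapentin and promotes synapse formation. Its probe ILMN_2568719 read 6.70, 6.52 and 6.46 in control and 5.96, 5.63 and 5.80 in the knockdown. The groups did not overlap, and detection dropped from 3 control arrays to 1 knockdown array. The level fell by 0.76 (SE 0.12, limma adjusted p = 0.0054, or 0.0112 with no filter on dim probes). With 2 knockdown arrays at background this size is not an exact fold either, and without background correction the difference was -0.39 (adjusted p = 0.0083). The call was lost without preparation 2 (limma adjusted p = 0.06).

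The brightest Cacna2d1 probe, ILMN_2752030, read 10.75, 10.49 and 10.48 in control and 10.33, 10.22 and 10.02 in the knockdown. It was lower in all knockdown arrays, with a difference of -0.39 (SE 0.12, limma adjusted p = 0.0594). It passed with preparation as a block (adjusted p = 0.0358) and without background correction (adjusted p = 0.0308). ILMN_1215110 went the other way, at 7.31, 7.14 and 7.45 in control and 7.66, 7.54 and 7.75 in the knockdown. It was higher in all knockdown arrays, with a difference of 0.35 (SE 0.11, limma adjusted p = 0.0625, or 0.0396 with preparation as a block).

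The 3 Cacna2d1 probes are annotated to 3 different transcript records. The difference of ILMN_1215110 exceeded that of ILMN_2752030 by 0.74 (SE 0.17), which did not pass (limma adjusted p = 0.0994, or 0.0754 with the block). It passed without background correction (0.61, adjusted p = 0.0342) and among probes detected at 0.01 on all 6 arrays (adjusted p = 0.0485). The difference of ILMN_2568719 was below that of ILMN_2752030 by 0.37 (value -0.37, SE 0.12, limma adjusted p = 0.241).

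Cacna2d3, an alpha2delta gene linked in mice to hearing and pain sensing, has 1 probe, ILMN_2762672. It read 10.85, 10.84 and 11.02 in control and 10.48, 10.47 and 10.44 in the knockdown. The knockdown arrays lay close together (SD 0.02) and below every control array (SD 0.10). The level fell by 0.43 (SE 0.088, limma adjusted p = 0.0139), or 1.35-fold, and the adjusted p stayed at or under 0.0461 when any 1 array was left out. The call was lost without preparation 1 (adjusted p = 0.103), 2 (0.0973) or 3 (0.0591).

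Among alpha1 subunits, the T-type pore gene Cacna1h rose. ILMN_1246201 read 10.78, 10.61 and 10.92 in control and 11.36, 11.27 and 11.22 in the knockdown, with every knockdown array above every control array. The level rose by 0.51 (SE 0.11, limma adjusted p = 0.0149), or 1.43-fold. The call was lost without the first control array (0.52, adjusted p = 0.0526) and under median scaling over all probes (0.39, adjusted p = 0.163). It was also lost without preparation 1 (limma adjusted p = 0.134) or 2 (0.113). The other 2 Cacna1h probes, ILMN_2576053 and ILMN_2431088, were undetected on all 6 arrays.

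Another T-type pore gene, Cacna1g, had 2 fitted probes. ILMN_1241838 read 8.84, 8.71 and 8.75 in control and 8.67, 8.29 and 8.02 in the knockdown. The groups did not overlap, though the first knockdown array lay close to the controls, and the difference was -0.44 (SE 0.17, limma adjusted p = 0.0947). Without the first knockdown array it was -0.62 (adjusted p = 0.0245). In 8 of 9 fits with arrays left out it did not pass (limma adjusted p up to 0.288). ILMN_1256998 read 6.81, 6.15 and 6.98 against 6.67, 5.95 and 6.25, which overlap, with a difference of -0.35 (SE 0.26, limma adjusted p = 0.359). Both probes were lower in 3 of 3 preparations, and their difference in change was 0.088 (SE 0.23, adjusted p = 0.94). ILMN_1247014 and ILMN_1251322 of Cacna1g were undetected on all 6 arrays. A difference between the changes of Cacna1h and Cacna1g was not tested.

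Pore genes of the high-voltage-activated types were read close to background. For Cacna1b, the N-type pore that drives transmitter release, ILMN_3033572 read 5.60, 6.39 and 6.42 in control and 6.18, 6.46 and 5.93 in the knockdown, a difference of 0.05 (SE 0.25, limma adjusted p = 0.902). ILMN_2770304 read 5.55, 5.90 and 6.24 against 6.52, 6.02 and 5.90, a difference of 0.25 (SE 0.22, adjusted p = 0.445). Both were detected on 2 arrays of each group, and their groups overlap. The other 2 Cacna1b probes were not fitted. ILMN_3107273 was detected on 1 array of each group, at 5.51, 6.11 and 5.16 against 5.95, 5.51 and 5.66. ILMN_1241072 was undetected on all 6 arrays.

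For the L-type pore gene Cacna1c, which couples activity to gene expression, ILMN_2677449 read 6.34, 5.09 and 5.41 in control and 5.19, 5.86 and 6.39 in the knockdown. The spread within each group (SD 0.65 and 0.60) exceeded the difference of 0.20 (SE 0.40, limma adjusted p = 0.744). ILMN_1214863 was detected on 1 knockdown array alone, at 5.01, 5.02 and 5.26 against 6.30, 5.34 and 5.32. ILMN_2840929, ILMN_2682982, ILMN_2682984 and ILMN_2597831 were undetected on all 6 arrays. For Cacna1d, the L-type pore that opens at more negative potentials, ILMN_2663841 read 6.32, 6.32 and 6.59 against 6.50, 6.36 and 5.65. Its groups overlap and only preparation 3 was lower, with a difference of -0.24 (SE 0.23, limma adjusted p = 0.477). ILMN_2605284 of Cacna1d was detected on 1 knockdown array alone, at 5.55, 5.73 and 5.47 against 5.92, 5.26 and 4.90. ILMN_2416764 was undetected on all 6 arrays.

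Cacna1a, the P/Q-type pore, had no fitted probe. ILMN_2485920 was detected on 0 control and 2 knockdown arrays, at 5.52, 5.66 and 5.49 against 5.95, 6.46 and 5.97. Taking for each control array the higher of the probe's value and the dimmest detected probe, the knockdown mean was 1.26-fold higher. That mean includes an undetected array, so the fold is no strict lower bound, and it was not tested. ILMN_1212985 went from 2 detected control arrays to 0 knockdown arrays, at 5.49, 5.82 and 5.88 against 5.61, 5.21 and 5.37. The same ratio, of its control mean to the knockdown arrays, was under 1. Of the 16 member probes not fitted, 15 are for alpha1 genes and 11 were undetected on all arrays, among them 4 of the 6 for Cacna1c.

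**Figure D4:**
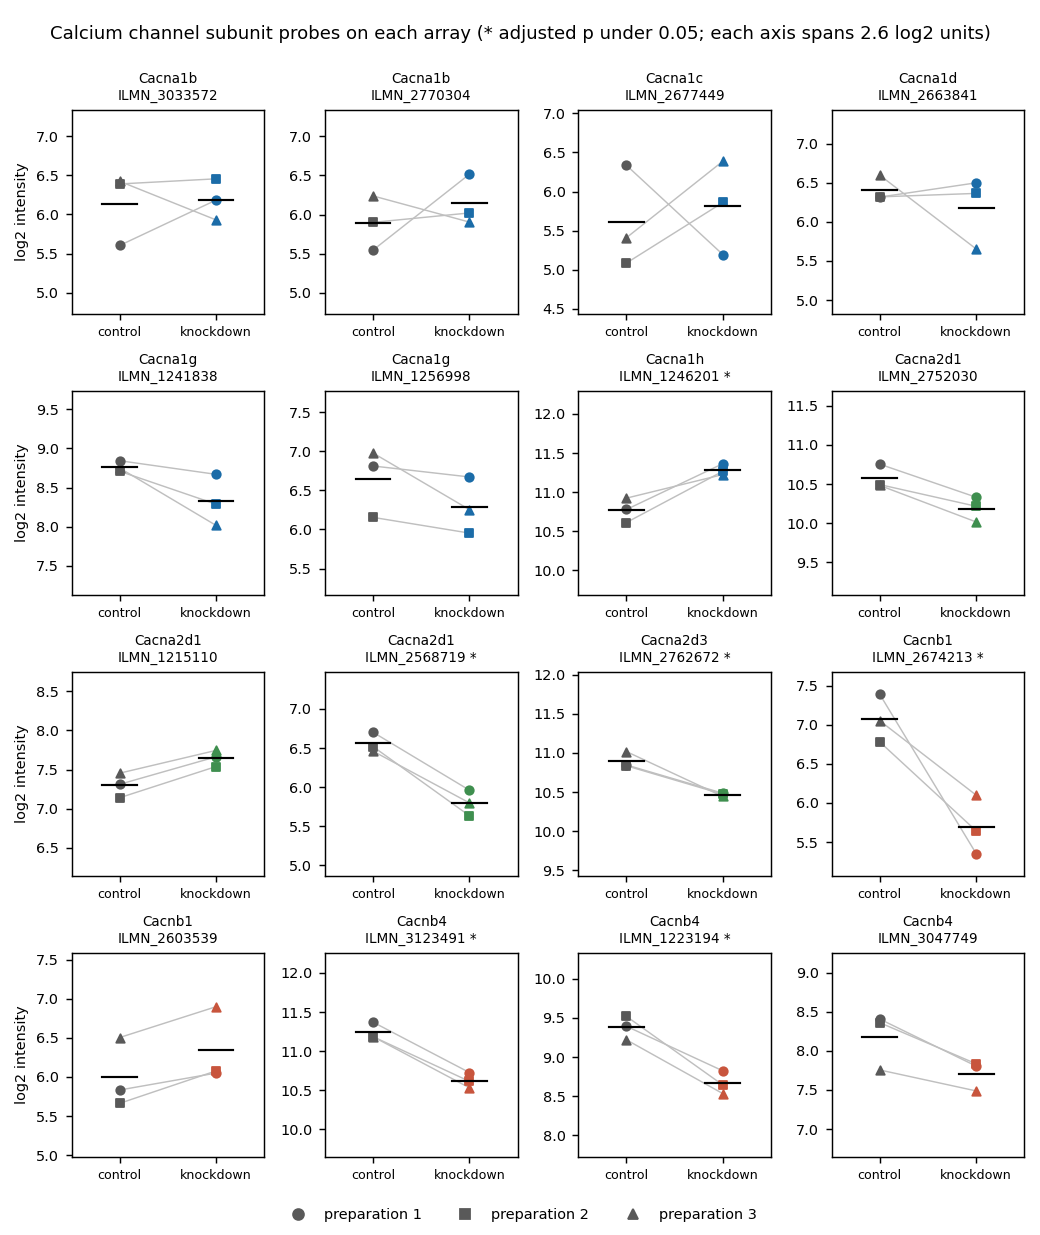
Log2 intensity (vertical axis, the same span in every panel) of the 16 fitted probes on the control and knockdown arrays, with lines joining the arrays of a preparation and bars for group means. Panels with an asterisk passed at an adjusted p of 0.05, and in each of these 6 the groups do not overlap.

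The remaining subunit genes were read in the same way. Of 16, 14 have a probe and 6 had one detected on at least 3 arrays. Cacna1e, Cacna1f and Cacng8 had a probe detected on fewer arrays, which was not fitted. By the brightest fitted probe 2 fell, 1 rose and 3 did not pass (of all 11190 genes, 29.4% passed, 1568 lower and 1726 higher). The genes that fell, Cacng2 (stargazin) and Cacng3, and the gene that rose, Cacng4, encode proteins of the gamma family that mainly escort AMPA-type glutamate receptors. Cacng2 fell by 0.62 (SE 0.12, limma adjusted p = 0.0133), from 9.02, 8.86 and 9.27 to 8.49, 8.32 and 8.48. Cacng3 fell by 0.85 (SE 0.15, adjusted p = 0.0077) on its brighter probe and by 1.11 (SE 0.21, adjusted p = 0.0097) on the other. Cacng4 rose by 0.97 (SE 0.099, limma adjusted p = 0.0013), from 8.94, 9.01 and 8.85 to 10.05, 9.81 and 9.85. For each of these probes the groups did not overlap.

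Cacnb2, a further beta gene, had 3 fitted probes. The brightest, ILMN_1217815, differed by -0.46 (SE 0.16, limma adjusted p = 0.0712, or 0.0353 with the block), and ILMN_2553612 by 0.10 (SE 0.10, adjusted p = 0.509). ILMN_2606862 was detected on 3 control and 0 knockdown arrays, at 5.89, 6.04 and 6.27 against 5.37, 5.54 and 5.04, at least 1.19-fold lower in the knockdown (limma adjusted p = 0.0161). It met the detection filter through the control arrays alone, where it is high. Its fitted difference was -0.75, or -0.41 without background correction, and with no filter the adjusted p was 0.0328. Cacng5 differed by -0.06 (adjusted p = 0.806) and Cacng7 by 0.06 (adjusted p = 0.79), and neither passed.

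**Figure D5:**
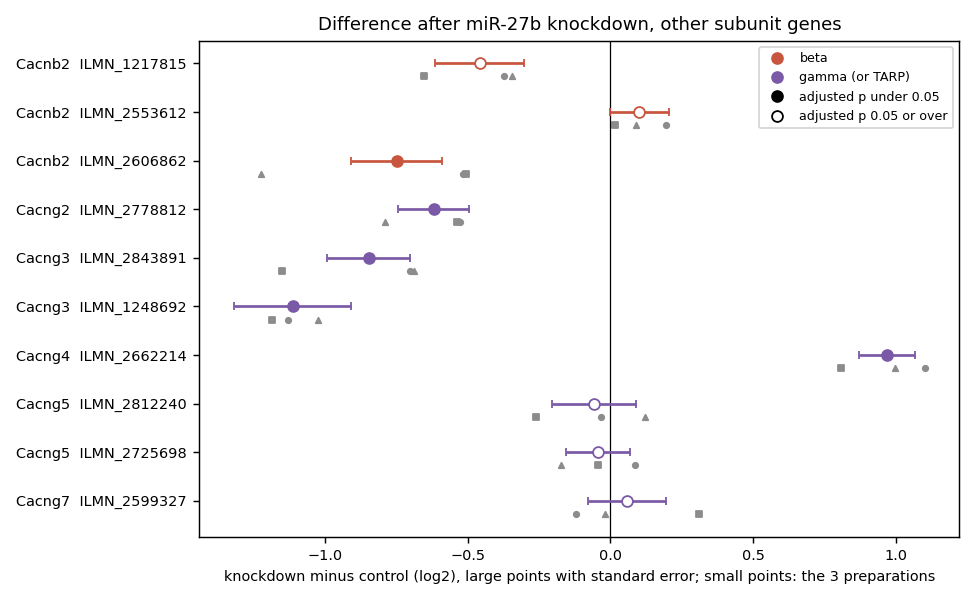
Difference between miR-27b knockdown and control (log2, horizontal axis) for the 10 fitted probes of the other subunit genes, drawn with standard errors and with small symbols for the 3 preparations. The 4 probes that fell (Cacnb2, Cacng2 and both of Cacng3) and the 1 that rose (Cacng4) are filled, and that of Cacnb2 was detected on control arrays alone.

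Proteins that bind or modulate the channels moved in both directions. Of 21 tested partner genes 6 fell and 3 rose, with a median difference of -0.15 against 0.0061 over all genes, of which 29.4% passed (1568 lower and 1726 higher of 11190). With preparation as a block 8 fell and 2 rose. Gnb5, a G protein beta subunit that pairs with RGS proteins, fell by 1.43 (SE 0.11, limma adjusted p = 5.8e-04). Syt1, which senses calcium at release sites, fell by 1.00 (SE 0.077, adjusted p = 6.3e-04). Camk2a, a calcium-dependent kinase that is also on the excitatory neuron marker list, fell by 1.03 (SE 0.095, adjusted p = 9.8e-04). Stac, an adaptor that binds L-type channels, rose by 1.58 (SE 0.41, adjusted p = 0.0315).

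Of 23 genes that clear, store or buffer calcium, 6 fell and 3 rose, with a median of -0.33, beside the same 29.4% of all genes. With preparation as a block 8 fell and 2 rose. Pvalb, a calcium buffer of fast-spiking interneurons that is also on the inhibitory neuron list, fell by 1.22 (SE 0.31, limma adjusted p = 0.0279). The sodium-calcium exchanger gene Slc8a2 fell by 1.01 (SE 0.17, adjusted p = 0.0076) and the plasma membrane calcium pump gene Atp2b4 fell by 0.65 (SE 0.18, adjusted p = 0.039). Ryr1, a calcium release channel, rose by 0.97 (SE 0.17, adjusted p = 0.0088). Leaving out 1 array ended the calls of Stac (adjusted p up to 0.0926), Pvalb (up to 0.091) and Atp2b4 (up to 0.114), and without the first control array 2 of the 23 genes fell. Those calls also missed the threshold when no filter on dim probes was set (Stac 0.0613, Pvalb 0.055, Atp2b4 0.0785). Without background correction the differences of Pvalb, Ryr1 and Atp2b4 were -0.76, 0.58 and -0.41.

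Markers of cell types moved beside the subunits, where 29.4% of all 11190 genes passed (1568 lower and 1726 higher). Of the inhibitory neuron markers 7 of 9 tested fell and 0 rose (median -0.97), and their summed normalised intensity was 49866 to 55313 in control and 26395 to 32621 in the knockdown. Without control array 1, 2 or 3, or without knockdown array 2, 4 of the 9 fell. Of the astrocyte markers 5 of 11 fell and 0 rose (median -0.67), with sums of 25184 to 34585 against 18801 to 23544. For the oligodendrocyte lineage 0 of 4 passed (sums of 8291 to 11142 against 4815 to 7731), and with preparation as a block Olig1 and Cnp fell (adjusted p = 0.0172 and 0.0331). None passed for vascular cells and fibroblasts (0 of 5, with 1 lower under the block) or microglia (0 of 1). With the block 6 of the 11 astrocyte markers fell. Of the excitatory neuron markers 3 of 10 fell and 2 rose, with sums of 22756 to 23670 against 22714 to 22819. These sums join Slc17a6 and Neurod2, which rose by 0.79 and 0.52, with Camk2a, Slc17a7 and Nrn1, which fell by 1.03, 0.87 and 0.64. Of the general neuron markers 2 of 6 fell (Rbfox3, a neuronal splicing factor, by 0.42, limma adjusted p = 0.0162, and the enolase gene Eno2 by 0.74, adjusted p = 0.0027) and 0 rose. Their sums were 52724 to 55339 against 42666 to 46604. No probe detected on at least 3 arrays carried the names Gad2, Dlx5 and Lhx6 for inhibitory neurons or S100b for astrocytes. The part of these shifts in the subunit differences was not tested.

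The member probe with the smallest p was ILMN_2568719 of Cacna2d1. The genes with the nearest profile over the 6 arrays, by root mean square distance between mean-centred log2 values, were Chrm3, a muscarinic acetylcholine receptor (0.041), Asb13 (0.053) and Ttyh1, a membrane protein of neural cells (0.056). Their differences were -0.82, -0.77 and -0.85, a size that the choice by profile fixes. This is a description over 6 arrays that share the 2 groups. The Cacna2d1 probe was detected on 3 control arrays and 1 knockdown array. Its knockdown values thus lie near background, and the distances rest in part on them.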

How the data were processed

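RNA (500 ng) from 3 control and 3 miR-27b knockdown cultures was labelled for the bead array. Per the file headers, the deposited intensities were not normalised between arrays, and each comes with a detection p-value. The lowest deposited intensity was 47.8, so no background subtraction was assumed; the scanning software is not given in the sources used here. A second deposited table of intensity values differed by at most 0.0046 (log2) from the quantile-normalised first and served as an alternative.

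In R 4.3.3, limma 3.58.1 corrected the background with its normexp model from the detection p-values (offset 16), followed by quantile normalisation and log2. Probes with a detection p under 0.05 on at least 3 of 6 arrays were fitted (lmFit and eBayes, two-sided, Benjamini-Hochberg over 18627 probes, threshold 0.05). Each probe is a feature, and a second fit tested the log2 ratio of each fitted probe to the brightest fitted probe of its gene. Depth has no count here, and the number of arrays limits the precision. The scripts were tested on simulated data.

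Symbols came from the platform annotation and were updated for 1409 probes with a RefSeq table (GRCm38.p6, names only) through Entrez ID, accession and synonyms other than clone names; 35784 probes had a symbol, 0 had several and 9497 had none. This way of updating was revised several times after results had been seen, and the other ways are given as alternatives below. The member probes carry the same symbols in all of them.

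Named were all members and their probes, the other subunit genes with a detected probe, and, of the partner and the calcium-handling lists, the 4 genes with the largest difference among those past the threshold and of 1 sign in all 3 preparations. The 3 genes with the profile nearest to the member probe of smallest p were added. The markers Snap25, Nefl, Rbfox3, Eno2, Olig1, Cnp, Slc17a6, Slc17a7, Neurod2 and Nrn1 were named after their values were seen. List genes were represented by their brightest fitted probe. Members and lists were chosen with earlier results of these data known.

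The series describes 3 preparations, and same-numbered arrays deviated together from their group means (correlations of 0.115, 0.215 and 0.227 over probes). The numbers were therefore taken to pair the arrays, and each result was also fitted with preparation as a block. Same-numbered arrays were also neighbours in the sample order, so a shared preparation and shared handling cannot be told apart.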

Additional observations from a re-analysis of the deposited data

How the results depend on the processing

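Over 321 alternative values of the 16 member probes, 292 kept their direction and their side of the threshold, 14 lost the call, 15 gained one and 0 reversed with a call on either side. The main counts were 5 member probes lower and 1 higher, 2526 of all probes lower and 2581 higher, and 106 pairs of probes. With the replicate block the members gave 7 lower and 2 higher (13.9% and 13.8% of all probes), adding Cacnb4 ILMN_3047749 and Cacna2d1 ILMN_2752030 and ILMN_1215110, and 41 pairs. Apart from these, Cacnb2 ILMN_1217815 and the Cacnb1 pair, the block changed no call of a named subunit probe or pair. Median scaling over all probes gave 2022 lower and 1295 higher, with 0 members higher, and moved the median of all probes to -0.08. Requiring a detection p under 0.01 on all 6 arrays gave 2 members higher. Without the filter on dim probes the median over all 32 member probes was 0.020, against -0.37 over the 16 fitted. The 16 probes that enter were detected on 0 (11 probes) to 2 arrays. Pairs numbered 257 without background correction and 180 with an offset of 50.

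Leaving out arrays gave 0 to 6 members lower, 0 to 1 higher, 663 to 2150 probes lower, 552 to 2227 higher and 4 to 68 pairs. With any single array out, 5 or 6 members were lower. With a whole preparation out, 2 arrays per group remained: 1 member was lower and 0 higher without replicate 1, 0 and 0 without replicate 2, and 5 and 1 without replicate 3, where Cacna2d3 was lost and Cacnb4 ILMN_3047749 gained (adjusted p = 0.0244).

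Chosen after seeing the data were median scaling over detected probes, which changed no member call, and the ways of updating symbols. The symbols used in the report updated 1409 probes; updating without synonyms (937 probes) and through all synonyms (3280) gave 93 and 117 called pairs. The Cacnb1 pair kept its call in all of these ways (adjusted p = 0.0306 and 0.0267), but with the block it missed the threshold without synonyms (0.0627, 37 pairs called) and passed through all synonyms (0.0497, 55 pairs), so that call depends on the choice. Partner genes that fell were 5 of 20 and 7 of 22, and inhibitory markers 7 of 9 and 8 of 10. Through all synonyms Akap5 would be named in place of Syt1, and the report's naming of Syt1 rests on the way chosen. Partner genes that fell were 10 without background correction, in the authors' table and with the stricter detection filter.

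Intensity limits the rest: 16 of 32 member probes were too dim to fit, and sizes of dim probes shrink without background correction.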
